A study of Mus musculus with 10 samples.

Results

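Mdm2 and 9 further genes of the p53 pathway (Mdm4, Trp53, Cdkn1a, Ccng1, Ccng2, Ppm1d, Sesn1, Sesn2 and Bbc3) were examined for peaks of N6-methyladenosine (m6A), the commonest internal modification of messenger RNA, in 3T3-L1 cells. They are 10 of the 21951 protein-coding genes annotated on the mouse genome build GRCm38 (mm10). A listed peak was assigned to a gene when both of its ends lay in exons of a transcript of that gene on the gene's strand. Across the 4 distinct peak lists 24 peaks lay in 6 of the 10 genes, and 11 of these peaks lay in Mdm2. Over all protein-coding genes 3644 (16.6%) had a peak in at least 1 of these lists. Mdm2 was chosen by the score of its peak in the preadipocyte list, so that the rank of this peak is a description and not a finding, and the other genes were taken as its pathway partners.

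3T3-L1 is an established mouse fibroblast line that turns into fat cells when confluent cultures are given a hormone mixture (MDI). Methylated RNA immunoprecipitation sequencing (MeRIP-seq) sequences RNA fragments pulled down by an antibody against m6A (IP) next to the RNA they came from (input), and the 10 libraries formed 1 IP and input pair for each of 5 conditions. The conditions were preadipocytes (DMSO Pre), cells at the mitotic clonal expansion stage (DMSO MCE, rhein MCE) and cells at the differentiation stage (DMSO Diff, rhein Diff). Rhein, an anthraquinone of rhubarb root, was given at 20 µM from day 0 to day 3, and DMSO was its vehicle. With 1 pair per condition there is no spread between replicates, so no difference between conditions was tested and no p-value is given. The deposited peaks carry no read counts, so that the depth behind a peak is unknown. A gene without a peak may lack m6A or may have had too few reads.

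DMSO Pre gave a list of 2824 peaks, DMSO MCE 5128 and DMSO Diff 2944, and the rhein lists held 3069 (MCE) and 3071 (Diff). The 2 rhein lists shared 3067 identical peaks, including all 5 in the genes examined, whose scores differed by at most 0.0370. They were counted as 1 list, shown by rhein MCE, and which of the rhein stages it stands for cannot be told from the files. Each peak has 1 value, a score, which in the preadipocyte list ran from 4.19 to 735 and had the scale of an adjusted p-value on a negative log2 axis. It is used only as a rank within its list, where rank 1 is the highest score. No adipocyte marker of 7 had a peak in any list and 4 of 6 preadipocyte markers did, but peak lists give no expression and so could not be set against the labelled cell types.

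The protein p53, encoded by Trp53, is a transcription factor that is stabilised by DNA damage and other stress and turns on genes for cell cycle arrest, repair and cell death. Mdm2 is the ubiquitin ligase that marks p53 for degradation and is itself a p53 target, which closes a negative feedback loop. Mdm4 binds and inhibits p53 beside Mdm2, and Ppm1d is a p53-induced phosphatase that switches the damage signal off again. 3T3-L1 cells re-enter the cell cycle for a few rounds at the mitotic clonal expansion stage, before the fat cell program begins. The m6A methyltransferase prefers an A after G or A and before C, with GGAC as its favoured core, and m6A is known to gather near stop codons.

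The sequences of the coding sites covered in more than 1 list are shown first, together with GGAC sites under single peaks. Sites in 3′ untranslated regions shared between lists, in Mdm2 and Ccng1, held no GGAC in the shared bases and are not shown. They were read 5′ to 3′ from the GENCODE M21 transcripts (GRCm38), and capitals mark GGAC, searched on the transcript strand only. The end of the Mdm2 coding sequence, which encodes the RING finger that carries the ligase activity, lies at chr10:117690210-117690509 on the minus strand and ends in the stop codon. It held 2 GGAC.
Mdm2: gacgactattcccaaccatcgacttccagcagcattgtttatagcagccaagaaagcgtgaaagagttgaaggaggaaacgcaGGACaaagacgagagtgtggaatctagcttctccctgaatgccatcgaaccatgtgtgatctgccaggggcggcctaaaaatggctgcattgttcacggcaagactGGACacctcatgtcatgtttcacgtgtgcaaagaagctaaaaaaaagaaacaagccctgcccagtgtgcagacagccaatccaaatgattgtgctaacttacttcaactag
The peaks of Mdm4 at chr1:132991870-132992094 (minus strand) and of Ppm1d at chr11:85345669-85345918 (plus strand) are shown because each lay in coding sequence and was found again, at least in part, in another list.
Mdm4: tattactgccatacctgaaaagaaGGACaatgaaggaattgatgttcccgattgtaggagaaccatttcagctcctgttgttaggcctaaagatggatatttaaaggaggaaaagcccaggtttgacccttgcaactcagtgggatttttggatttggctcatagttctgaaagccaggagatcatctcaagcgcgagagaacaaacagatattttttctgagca
Ppm1d: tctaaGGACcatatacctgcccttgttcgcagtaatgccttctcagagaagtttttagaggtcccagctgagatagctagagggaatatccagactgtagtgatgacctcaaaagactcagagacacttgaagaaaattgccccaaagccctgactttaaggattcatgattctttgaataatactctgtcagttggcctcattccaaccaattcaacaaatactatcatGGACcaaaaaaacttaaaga
GGAC sites under peaks in 3′ untranslated regions are shown as short windows, for Mdm2 at chr10:117689878-117689901 (minus strand), for Sesn1 at chr10:41907696-41907719 (plus strand) and for Sesn2 at chr4:132493508-132493531 (minus strand).
Mdm2 3′ UTR: agatgatggtGGACcttcctcatc
Sesn1 3′ UTR: gtaaagactgGGACgtggctacta
Sesn2 3′ UTR: tttcctcactGGACtgaacaGGAC

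Among the 10 genes 4 had a peak in DMSO Pre and 4 in DMSO MCE, followed by 3 in DMSO Diff and 2 in rhein MCE. Over all protein-coding genes the percentage with at least 1 exonic peak was 6.89 in DMSO Pre, 12.5 in DMSO MCE and 6.69 in DMSO Diff, while rhein MCE had 7.45 and rhein Diff 7.46. The share of the 10 genes was thus above the background in each list, but with Mdm2 chosen for its peak and only 10 genes this is a count and not a test. The background takes in all annotated protein-coding genes, expressed or not, and the peak lists give no expression to match them by. DMSO Pre had 8 of the peaks over 1450 exonic bases, DMSO MCE 6 over 875, DMSO Diff 5 over 750 and rhein MCE 5 over 375. Much of this was Mdm2, which the preadipocyte list chose. Without it DMSO Pre had 4 peaks over 575 bases in 3 of 9 genes, DMSO MCE 5 over 725 in 3, DMSO Diff 2 over 375 in 2 and rhein MCE 2 over 150 in 1 (Ppm1d). Mdm2 was the only gene of the 10 with a peak in all 4 lists, which held for 562 protein-coding genes (2.56%), and Trp53, Cdkn1a, Ccng2 and Bbc3 had none in any.

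**Figure D1:**
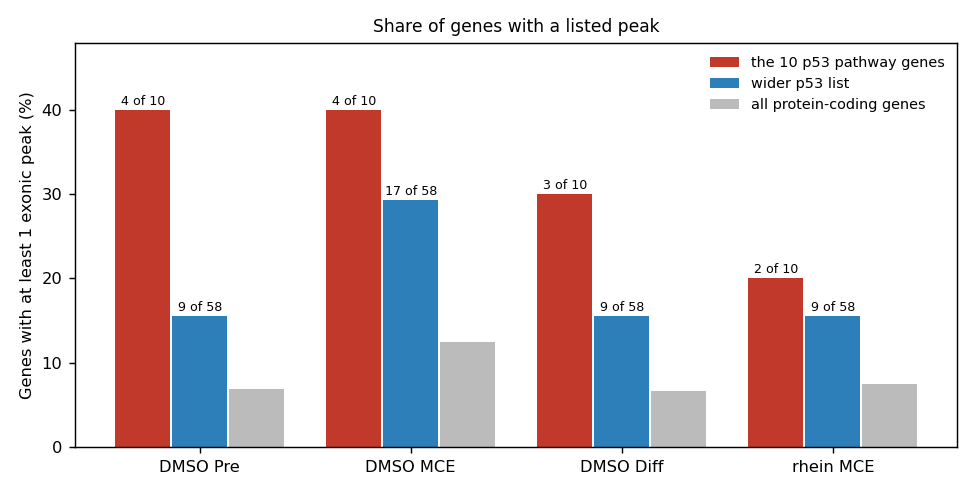
Percentage of genes with at least 1 exonic peak (vertical axis) in each of the 4 distinct lists, for the 10 p53 pathway genes (red), a wider list of 58 p53 pathway genes (blue) and all protein-coding genes (grey), with the counts above the bars. The red bars stand for 4, 4, 3 and 2 genes and the grey bars lie between 6.69% and 12.5%.

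Mdm2 spans chr10:117688875-117710758 on the minus strand. Its longest coding transcript (ENSMUST00000105263.8) has 12 exons and 3145 bases, of which 1323 are coding and 1335 are 3′ UTR. All coding-transcript peaks lay in the last exon. Positions in the text are counted on the spliced transcript from the last base of the stop codon, with negative values upstream of it.

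In DMSO Pre the best Mdm2 peak ranked 2 of 2824 (score 335), which chose the gene. It covered 450 bases at chr10:117690100-117690549, from −339 to 110, and 340 of these were coding. Only 36 of the assigned peaks of the list were longer (1.31%). A second peak in the 3′ UTR (chr10:117689600-117689899, 300 bases, from 311 to 610) ranked 13 with a score of 84.3. The third peak, also in the 3′ UTR, covered 75 bases close to the transcript end (chr10:117688925-117688999, from 1211 to 1285) and ranked 15 with a score of 77.8. These 3 peaks were among the 15 highest scores of the list. As this list chose Mdm2, their ranks and lengths here are a description. Peaks of 1 gene are also not independent.

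In DMSO MCE there was a single Mdm2 peak of 150 bases at the stop codon (chr10:117690150-117690299, from −89 to 60), which ranked 15 of 5128 with a score of 75.5. In DMSO Diff the stop codon peak covered 250 bases (chr10:117690175-117690424, from −214 to 35) and ranked 4 of 2944 with a score of 183. A 75-base peak in the 3′ UTR (chr10:117689725-117689799, from 411 to 485) ranked 154 with a score of 26.1. It lay wholly inside the second peak of DMSO Pre.

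In rhein MCE the region before the stop codon carried 2 short peaks. The upstream peak covered 75 bases (chr10:117690325-117690399, from −189 to −115) and ranked 27 of 3069 with a score of 79.0. The downstream peak covered 100 bases (chr10:117690200-117690299, from −89 to 10) and ranked 80 with a score of 49.97. Between them lay a gap of 25 bases, the step in which peak lengths in these lists grow. A 50-base peak near the transcript end (chr10:117688925-117688974) ranked 290 with a score of 21.3 and lay inside the third peak of DMSO Pre. The rhein Diff list placed the same 3 peaks at ranks 27, 78 and 293.

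Thus the 4 lists shared 100 bases at the Mdm2 stop codon (chr10:117690200-117690299, from −89 to 10), 90 of them coding. The 3 DMSO lists shared 125 bases, from 117690175 to 117690299. The peak over this stretch was 450 bases long in DMSO Pre, 250 in DMSO Diff, 150 in DMSO MCE and 100 in rhein MCE, which had a further 75 bases close upstream. Summed over all peaks, Mdm2 had 875 covered bases in preadipocytes and 375 in DMSO Diff, but 225 in rhein MCE and 150 in DMSO MCE. The sums of DMSO Pre and DMSO Diff each include a 50-base peak outside the coding transcripts, described below. Because the DMSO Pre list chose Mdm2 by its peak, the greater coverage there is not a finding. Whether these lengths differ beyond the variation between cultures was not tested.

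**Figure D2:**
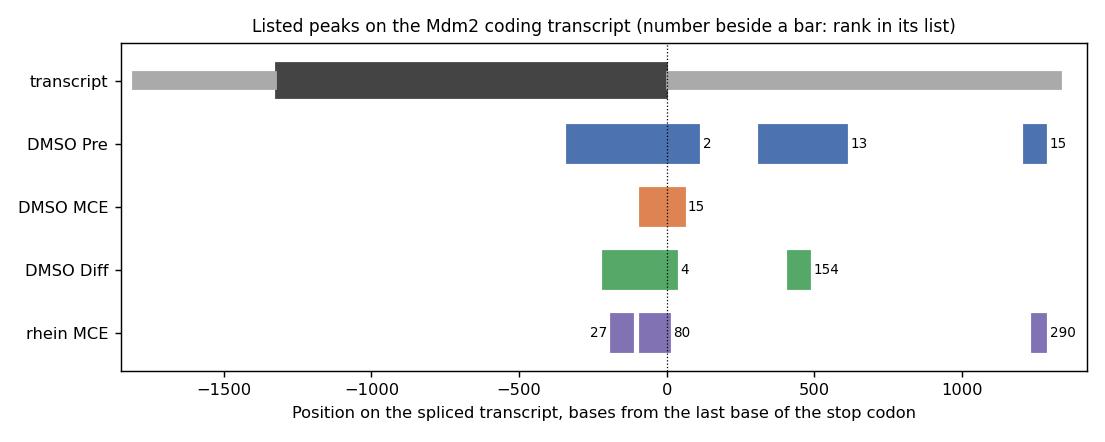
Peaks on the spliced Mdm2 coding transcript in the 4 distinct lists, with the position in bases from the last base of the stop codon on the horizontal axis and the rank of each peak in its list as a number beside its bar. The transcript is drawn on top with coding sequence in dark grey and untranslated regions in light grey, the dotted line marks the stop codon, and each list has a peak at it, 450, 150, 250 and 100 bases long.

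None of the 10 GGAC in the Mdm2 transcript was under a peak in all 4 lists. The GGAC at −110 (its A at chr10:117690318) was under the peaks of DMSO Pre and DMSO Diff. In DMSO MCE it lay upstream of the peak, and in rhein MCE it lay in the 25-base gap between the 2 peaks. The GGAC at −216 (A at chr10:117690424) and the GGAC at 319 (A at chr10:117689889) were whole under peaks of DMSO Pre only, although the DMSO Diff peak began at −214 and so held the A and C of the former. The 100 bases shared by the 4 lists held no GGAC and no GAAC, but 1 AGAC and 1 AAAC. The DMSO MCE peak also had no GGAC, whereas 67.6% of the 309 assigned peaks of 150 bases in that list had one. A peak call places m6A within a window of fragments and not at a base, so that a GGAC outside a peak is not shown to be unmethylated.

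Apart from the coding transcript, Mdm2 had weak 50-base peaks near its start in 2 lists. In DMSO Pre the peak was at chr10:117709867-117709916 (score 11.9, rank 625) and in DMSO Diff at chr10:117709792-117709841 (score 10.9, rank 750). Both lay in an intron of the coding transcripts and were exonic only in ENSMUST00000151725.1, a retained-intron transcript of 2 exons. They did not overlap each other and held no GGAC.

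A peak among the top 1% of scores was found in a small percentage of protein-coding genes, 0.0683 in DMSO Pre, 0.114 in DMSO MCE and 0.0592 in DMSO Diff, with 0.105 in rhein MCE. Of the 10 genes Mdm2 alone was among these, in every list, with its best peak at 0.0708%, 0.293%, 0.136% and 0.880% of the list. Only 3 protein-coding genes were in the top 1% of all 4 lists, Mdm2, Hspa5 and Adamts1. In the 3 lists that did not choose Mdm2 the number was 4. The 1% limit was set after the ranks were seen.

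The genes most like Mdm2 in the rank of the best peak across the 4 lists, taken as the smallest sum of absolute differences in percent of the list, were Hspa5 (0.328), Gm24144 (1.03), Gm23412 (1.09), Adamts1 (1.19) and Otx2os1 (2.97). Hspa5, the endoplasmic reticulum chaperone BiP, had its best peak at 0.177% of the list in DMSO Pre, at 0.312% in DMSO MCE, at 0.306% in DMSO Diff and at 0.912% in rhein MCE. Adamts1, a secreted metalloprotease, lay at 0.319%, 0.566%, 0.543% and 0.619%. Gm24144 and Gm23412 are annotated as small nuclear RNAs and Otx2os1 as a long noncoding RNA. Hence only Hspa5 and Adamts1 of the 5 are protein-coding.

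**Figure D3:**
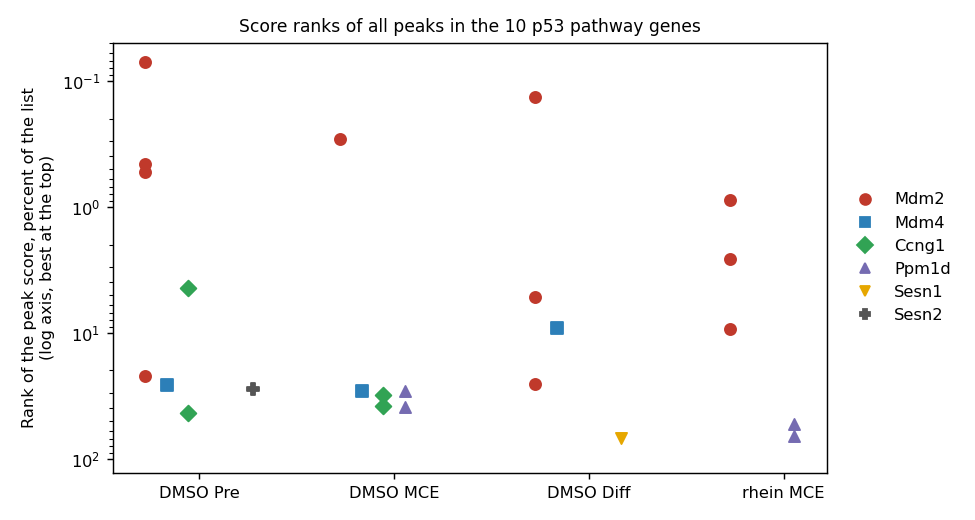
Rank of every peak in the 10 p53 pathway genes as a percentage of the length of its list (vertical log axis, best scores at the top) in the 4 distinct lists, 1 point per peak, with shape and colour for the gene. The best Mdm2 peak is above 1% in each list, while the peaks of Mdm4, Ccng1, Ppm1d, Sesn1 and Sesn2 lie between 4.46% and 68.4%.

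Mdm4 (chr1:132959484-133030561, minus strand), the inhibitory partner of Mdm2, had a peak in each DMSO list and none in the rhein lists. In DMSO Pre and DMSO Diff the peak had the same ends (chr1:132991870-132992094, 225 bases, from −438 to −214) and in DMSO MCE it was 200 bases long (chr1:132991870-132992069). It lay in the coding part of exon 11, the last exon, although the deposited annotation lists it as 3′ UTR. The score was 11.1 in DMSO Pre (rank 737, 26.1% of the list), 8.42 in DMSO MCE (rank 1495, 29.2%) and 17.6 in DMSO Diff (rank 269, 9.14%). The 5436 bases of Mdm4 3′ UTR, with most of the 21 GGAC of the transcript, carried no peak in any list. The only GGAC under a peak began at −414 and was covered in DMSO Pre and DMSO Diff, while the DMSO MCE peak began at −413 and so missed its first base.

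Ppm1d (chr11:85311244-85347066, plus strand), the phosphatase that acts against p53, had peaks in DMSO MCE and in the rhein lists and none in DMSO Pre or DMSO Diff. In DMSO MCE the longer peak covered 250 coding bases (chr11:85345669-85345918, from −524 to −275) with a score of 8.43 and rank 1490 (29.1%). The shorter covered 100 bases of the 3′ UTR (chr11:85346269-85346368, from 76 to 175) with a score of 7.70 and rank 1995 (38.9%). In rhein MCE 2 peaks, of 50 bases (chr11:85345694-85345743, score 7.10, rank 2037) and 100 bases (chr11:85345769-85345868, score 7.80, rank 1621), lay inside the longer DMSO MCE peak and were again 25 bases apart. Both GGAC of the DMSO MCE peak lay outside the rhein peaks, at −519 and −294. All 4 Ppm1d peaks were listed under the symbol of the neighbouring gene Bcas3 (chr11:85353167-85826058), and no listed symbol names Ppm1d.

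Trp53 itself (chr11:69580359-69591873, plus strand) had no exonic peak in any list. Its transcript of 1867 bases held 7 GGAC, or 3.75 per kb, against 3.18 per kb in Mdm2. GGAC per kb was not higher throughout in the genes with a peak. Bbc3 and Cdkn1a, both without a peak, had 8.27 and 5.29 per kb. Mdm4, with a peak in 3 lists, had 2.96.

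Of the cell cycle genes Cdkn1a, Ccng1 and Ccng2 only Ccng1 had peaks. Ccng1 (chr11:40748552-40755311, minus strand) encodes cyclin G1, a p53 target that recruits a phosphatase to Mdm2. In DMSO Pre a 200-base peak began just behind the stop codon (chr11:40750652-40750851, from 17 to 216) with a score of 8.48 and rank 1226 (43.4%). A 50-base peak further into the 3′ UTR (chr11:40749527-40749576, from 1292 to 1341) had the higher score of 25.6 and rank 126 (4.46%). In DMSO MCE the first of these sites was found again as 125 bases (chr11:40750702-40750826, from 42 to 166) with a score of 8.24 and rank 1616 (31.5%). A peak of 50 coding bases in exon 2 of 6 (chr11:40753993-40754042, score 7.71, rank 1980) was listed in DMSO MCE only. None of the 13 GGAC of the transcript lay under any of the 4 peaks. In DMSO Pre 75.6% of the 200-base peaks and 20.9% of the 50-base peaks held a GGAC. In DMSO MCE 58.7% of the 125-base peaks and 22.6% of the 50-base peaks did.

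Cdkn1a (chr17:29090976-29100727, plus strand), the cyclin-dependent kinase inhibitor p21 and the classical arrest gene of p53, had no peak on its own strand. The symbol Cdkn1a was listed for a minus-strand peak of DMSO Pre (chr17:29093741-29093840, score 15.3, rank 373), which lay in AC167363.2, a minus-strand gene model inside the Cdkn1a span. Ccng2 (chr5:93267257-93276231, plus strand), the relative of Ccng1, had no peak and 6 GGAC. Bbc3 (chr7:16308393-16318205, plus strand), the cell death gene Puma, also had none. Its symbol was listed for 2 minus-strand peaks of DMSO MCE (ranks 3705 and 4758) that lay in the gene Sae1, 8923 and 9298 bases away.

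The sestrins, p53 targets that act against oxidative stress and mTORC1 signalling, each had 1 peak in 1 list. Sesn1 (chr10:41809935-41908424, plus strand) had 150 bases of 3′ UTR in DMSO Diff (chr10:41907593-41907742, from 235 to 384) with a score of 6.97 and rank 2013 (68.4%). Sesn2 (chr4:132492032-132510501, minus strand) had 100 bases of 3′ UTR in DMSO Pre (chr4:132493507-132493606, from 110 to 209) with a score of 10.7 and rank 796 (28.2%). The Sesn2 peak held 2 of the 24 GGAC of its transcript, and 1 of these was followed by T, the only GGACT under the 24 peaks. The Sesn1 peak held 1 of 22.

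**Figure D4:**
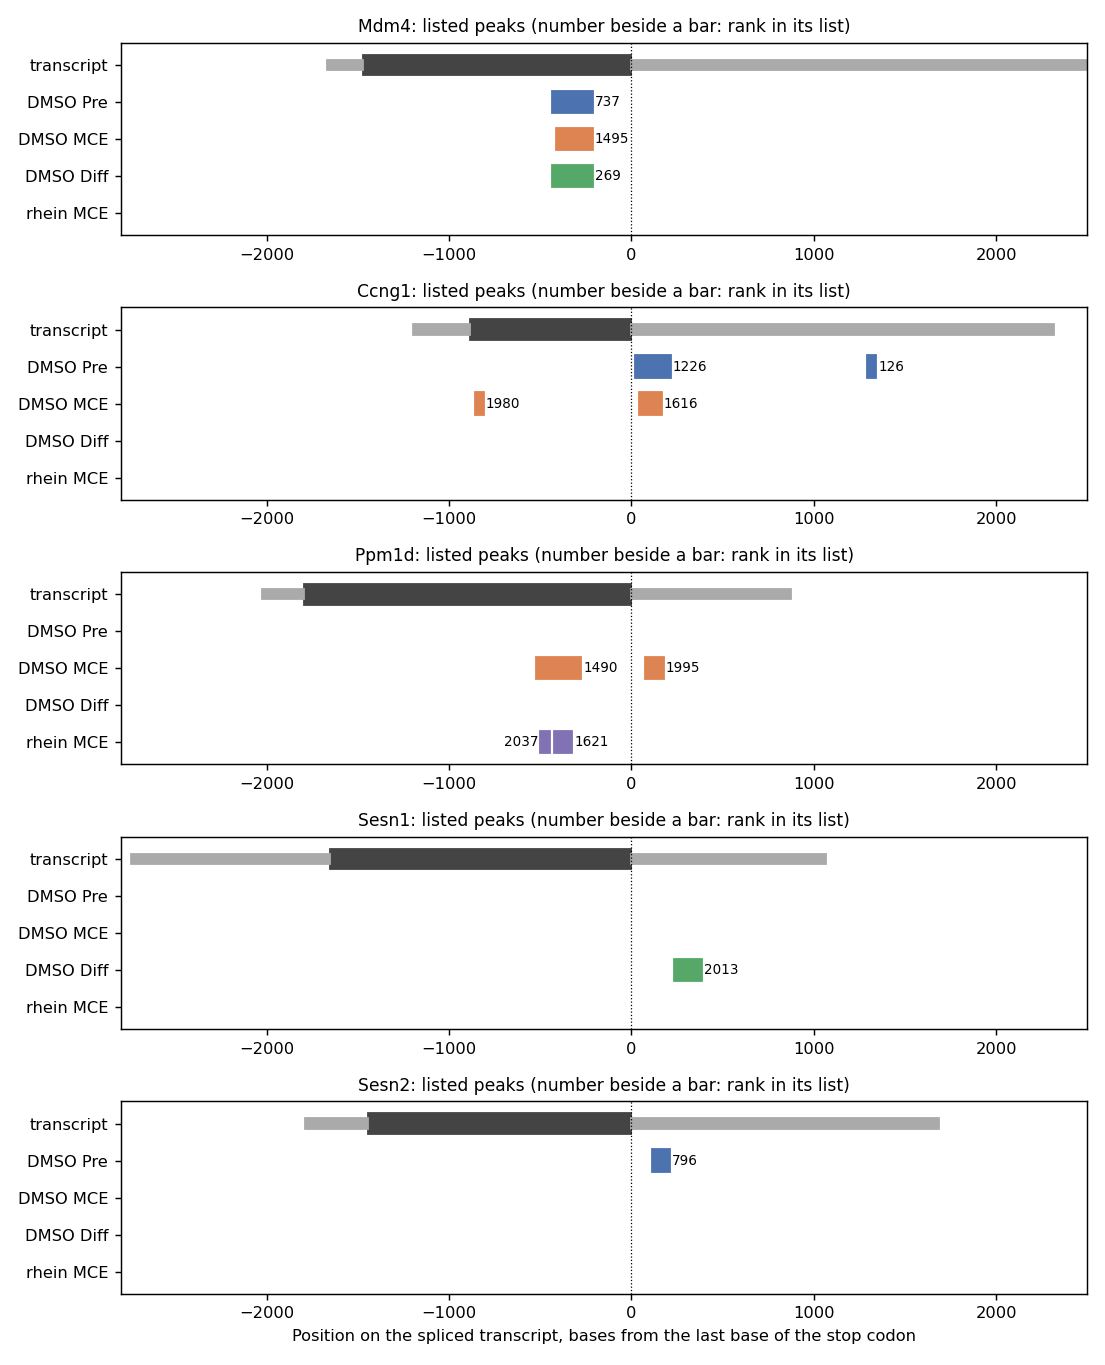
Peaks on the spliced coding transcripts of Mdm4, Ccng1, Ppm1d, Sesn1 and Sesn2 in the 4 distinct lists, drawn to the same scale, with the position in bases from the last base of the stop codon on the horizontal axis and the rank of each peak as a number beside its bar. Coding sequence is dark grey and untranslated regions light grey, and the long 3′ UTR of Mdm4 runs past the right edge. The 3 Mdm4 peaks are at the same place, the Ppm1d peaks of rhein MCE lie inside the DMSO MCE peak, and Sesn1 and Sesn2 have 1 peak each.

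Regarding the 24 peaks of the 4 distinct lists together, each lay in a single exon and had a length that was a multiple of 25 bases, from 50 to 450 with a median of 100. The median assigned peak over whole lists was 125 bases, or 100 in DMSO Diff. By the midpoint 12 lay in coding sequence, 10 in 3′ UTR and 2 in an intron of the coding transcripts. The deposited annotation named 18 of them 3′ UTR, and 8 of those had the midpoint in coding sequence. Of the 22 on coding transcripts, 21 were in the last exon, whereas 56.4% to 58.1% of the peaks on coding transcripts with more than 1 exon were in the whole lists. Within 200 bases of the stop codon lay 9 of the 22, against 22.0% to 24.96% over the whole lists. Peaks in 1 gene are not independent, and 9 of the 22 belong to Mdm2.

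A peak of another distinct list overlapped 5 of the 8 preadipocyte peaks, 4 of the 6 of DMSO MCE, 3 of the 5 of DMSO Diff and all 5 of rhein MCE. Over all assigned peaks the share overlapped in this way was 61.0% for preadipocytes, 47.3% for DMSO MCE, 63.6% for DMSO Diff and 67.5% for rhein MCE, so that the counts for these few peaks are not read further. GGAC was present in 4 of the 8 preadipocyte peaks, 1 of 6 at DMSO MCE, 3 of 5 at DMSO Diff and 0 of 5 at rhein MCE. The share of all assigned peaks with GGAC was 53.2% for preadipocytes (95% Wilson interval 51.3 to 55.1), 52.9% for DMSO MCE (51.5 to 54.3), 48.2% for DMSO Diff (46.4 to 50.1) and 52.2% for rhein MCE (50.5 to 54.0). The rhein MCE peaks in these genes were 50 to 100 bases long, and of its assigned peaks of 50, 75 and 100 bases 25.8%, 35.5% and 29.6% held a GGAC. With a window of 100 bases around each midpoint in place of the peak, GGAC was present in 3 preadipocyte peaks, 0 of DMSO MCE, 2 of DMSO Diff and 2 of rhein MCE, so that the order of the lists depends on the window. A match to GGAC or GAAC or AGAC or AAAC was present in 7 of the 8, 5 of the 6, 4 of the 5 and 3 of the 5 peaks, in the same order, against 86.1%, 84.4%, 84.6% and 85.5% of all assigned peaks. Of the assigned rhein MCE peaks of 50, 75 and 100 bases, 60.5%, 74.8% and 86.8% held such a match.

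In a wider list of 58 p53 pathway genes, 21 had an exonic peak in at least 1 of the 4 lists (9 for preadipocytes, 17 for DMSO MCE, 9 for DMSO Diff and 9 for rhein MCE). These are 15.5%, 29.3%, 15.5% and 15.5% of the list, against 6.89%, 12.5%, 6.69% and 7.45% of all protein-coding genes. Of all protein-coding genes 16.6% had a peak in at least 1 list. The peak lists give no expression, so the wider genes could not be matched to the others, and no difference was tested. By role, peaks in at least 1 list were found in 7 of 15 regulators of p53, 3 of 9 growth arrest genes, 6 of 20 cell death genes and 5 of 14 genes of DNA repair and metabolism. Among the regulators a peak was listed for 6 in DMSO MCE, 4 in DMSO Diff, 1 in DMSO Pre and 2 in rhein MCE. A peak in all 4 lists was found for 3 of the 58 genes, among them Cdkn2a and Steap3. Over all protein-coding genes this held for 562 (2.56%), and so small a count is not read further.

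One product of Cdkn2a is p19Arf, which binds Mdm2 and so spares p53. The peak was assigned to the gene and not to the transcript of this product. The Cdkn2a 3′ UTR peak had the same ends in DMSO Pre, DMSO MCE and rhein MCE (chr4:89274471-89274670). It reached to 89274720 in DMSO Diff. It ranked 204 of 5128 in DMSO MCE and 473 of 2944 in DMSO Diff, but 1700 of 2824 in DMSO Pre and 1996 of 3069 in rhein MCE. Its rank was thus best in DMSO MCE, and whether this goes with the Mdm2 peaks was not tested. Steap3, a metalloreductase, ranked no higher than 1685 in any list.

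The best-ranked genes of the wider list differed between the lists. In DMSO Pre the leading 3 were Thbs1 (rank 91, 11 peaks), Plk2 (rank 253) and Sesn3 (rank 394). Thbs1 encodes the secreted matrix protein thrombospondin 1, so the group of repair and metabolism genes was led by a gene of neither role. In DMSO MCE Cdkn2a led (rank 204) and Phlda3 came next (rank 984). In DMSO Diff Cdkn2a was among the best 3 (rank 473). In rhein MCE Phlda3 led (rank 150). The Phlda3 peak, in the 5′ UTR of a gene whose product restrains Akt, had the same ends in DMSO MCE and rhein MCE (chr1:135766119-135766293). It ranked 984 of 5128 in DMSO MCE and 150 of 3069 in rhein MCE, and a difference was not tested. No gene of the wider list reached the top 1% that Mdm2 reached in each list.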

How the data were processed

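Total RNA and m6A-immunoprecipitated RNA of 3T3-L1 cells were sequenced as 1 pair per condition. Per the study's methods, the authors trimmed reads with Trim Galore 0.6.5, aligned them to mm10 with HISAT2 2.1.0, removed duplicates with Picard 2.23.5 and poorly mapped reads with SAMtools 1.9, called peaks with exomePeak2 and annotated them with ChIPseeker 1.26. Which IP and input entered each call is not given in the sources used here. The deposited column is headed as a log2 fold change, but its values cannot be one and it was used as a score, ranked within each list.

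Peaks were assigned to GENCODE M21 genes by both ends in exons on the same strand, on the longest coding transcript where one fitted, with Python 3.11.15 and pandas 2.3.3. The assignment was run on simulated peaks drawn inside exons of coding transcripts. This checks the coordinates only and cannot show that a real peak belongs to its gene. All 10 genes are named with every peak. Of the 58 wider genes those with a peak in every list and the best 3 per list are named, and the 5 genes most like Mdm2. Some genes that this rule names are not reported here. The genes and lists were chosen with earlier results of these data known, and the 1% limit and the 4 short motifs after values were seen. Alternatives were other score limits, overlaps, strands, symbols and motif windows. Intervals cover counting error only.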

Additional observations from a re-analysis of the deposited data

Results flagged for a closer look

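The exonic bases under Mdm2 peaks moved in opposite directions between rhein and DMSO at the 2 stages, with rhein minus DMSO at 75 at the MCE stage (225 against 150 bases) and -150 at the differentiation stage (225 against 375). For Ppm1d the difference was -200 at the MCE stage (150 against 350 bases) and 150 at the differentiation stage (150 against 0). The rhein lists of the 2 stages are almost the same peaks, so that these contrasts follow the DMSO lists alone. With 1 list per condition the difference between the stages was not tested.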

How the results depend on the processing

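Of 85 values recomputed under alternatives, 62 stayed within 1.5 times and 23 moved. Read as adjusted p-values, a limit of 0.001 took the peaks from 6 to 1 and the genes from 4 to 1 in DMSO MCE, and from 5 to 3 peaks and 2 to 1 genes in each rhein list. At 1e-10 DMSO Pre had 3 peaks, DMSO MCE and DMSO Diff 1 each and the rhein lists 2 each, and Mdm2 was the 1 gene left in every list. By the listed symbol each rhein list had 3 peaks in 1 gene, since Ppm1d peaks are listed under Bcas3. In a window of 100 bases around the midpoint GGAC was present in 0 peaks of DMSO MCE and 2 of each rhein list. Counting any exonic base, either strand, an overlap of at least 50% of the shorter peak, lists of equal length or coding transcripts only (added after seeing the data) moved no count by more than 1.5 times. No paired analysis was possible because each condition has 1 pair and no test was run. Leaving out a replicate was likewise not possible. The depth of the libraries is not in the peak lists, so an absent peak is no evidence of absent m6A.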
